A study of Mus musculus with 21 samples.

Results

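The 10 carbonic anhydrase genes described here are Car1, Car2, Car3, Car4, Car7, Car8, Car9, Car12, Car13 and Car14. They were picked from 43432 gene identifiers as the rows of the count tables whose Ensembl identifiers carry those symbols. They were chosen with their levels over the 6 groups known, so those levels are given as a description, without a test. The other 6 genes of the family in the annotation, Car5a, Car5b, Car6, Car10, Car11 and Car15, are described by level only.

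RNA sequencing was carried out on tuft cells sorted from 5 mouse tissues and on tuft-depleted epithelium. The groups were small intestine tuft cells (3 libraries), colon tuft cells (4), gall bladder tuft cells (3), thymus tuft cells (4), trachea tuft cells (4) and non-tuft epithelium of the small intestine (3). All mice were naive and of the strain C57BL6.Il25(Flare25/Flare25), so every group, the non-tuft one included, carried the Flare25 reporter at Il25. Live CD45-negative, EPCAM-positive cells were taken as tuft cells when Flare25 was positive and as non-tuft cells when it was negative. Mice were 12-week-old males and each library came from 1 mouse, except that each trachea library pooled 4 mice aged 12 to 16 weeks, with pools 3 and 4 female. Libraries held 25739248 to 73574745 counts. They started from 35000 to 36000 small intestine tuft cells, 13500 to 16000 colon, 1750 to 2700 gall bladder, 1350 to 1900 thymus and 130 to 453 trachea tuft cells, and from 52000 to 57000 non-tuft cells. Non-tuft cells came from small intestine alone, so that organ alone offers a comparison of tuft cells with other epithelium of the same organ.

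Carbonic anhydrases catalyse the reversible hydration of carbon dioxide to bicarbonate and a proton. Cytosolic enzymes (Car1, Car2, Car3, Car7 and Car13) act inside the cell, where they feed carriers that move bicarbonate or protons across the membrane. Car4, tethered by a lipid anchor, and Car9, Car12 and Car14, which span the membrane, act on the outer face of the cell. Car8 lacks catalytic activity and binds an inositol trisphosphate receptor. In gut epithelium the family is known for its part in bicarbonate secretion and in salt and acid absorption. Tuft cells are rare chemosensory epithelial cells, and the transcription factor Pou2f3 is needed for their formation.

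Promoter windows, 250 bases before to 50 after a start site, were found in RefSeq (GRCm38.p6) for 5 of the 10 members, in 7 windows. The 3 printed here belong to Car7, the member with the largest fold change between small intestine tuft and non-tuft cells, and to Car4 and Car9, which were both low in thymus and trachea tuft cells. Capitals mark 3 motifs, searched on both strands. The first, known as the GC box and bound by Sp family factors, was GGGCGG. The second, the core element that hypoxia-inducible factors bind, was ACGTG. The letters TATAAA stood for the box of core promoters. A motif on the other strand appears in its complementary letters. Each is written 5′ to 3′ along the gene.
Car7 promoter, chr8:104540557-104540856, plus strand, the middle of 3 annotated start sites: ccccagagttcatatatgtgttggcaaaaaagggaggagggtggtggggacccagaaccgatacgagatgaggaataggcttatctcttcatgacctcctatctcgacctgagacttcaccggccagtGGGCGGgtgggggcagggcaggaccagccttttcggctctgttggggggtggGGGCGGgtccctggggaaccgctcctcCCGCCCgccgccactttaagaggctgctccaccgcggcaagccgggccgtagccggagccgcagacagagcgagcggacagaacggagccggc
Car4 promoter, chr11:84957504-84957803, plus strand: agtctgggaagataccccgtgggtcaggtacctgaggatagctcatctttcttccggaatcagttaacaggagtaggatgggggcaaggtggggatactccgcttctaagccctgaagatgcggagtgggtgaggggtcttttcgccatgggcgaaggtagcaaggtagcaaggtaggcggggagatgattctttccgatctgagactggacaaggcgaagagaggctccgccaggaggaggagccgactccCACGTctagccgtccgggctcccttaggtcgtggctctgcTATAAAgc
Car9 promoter, chr4:43506776-43507075, plus strand: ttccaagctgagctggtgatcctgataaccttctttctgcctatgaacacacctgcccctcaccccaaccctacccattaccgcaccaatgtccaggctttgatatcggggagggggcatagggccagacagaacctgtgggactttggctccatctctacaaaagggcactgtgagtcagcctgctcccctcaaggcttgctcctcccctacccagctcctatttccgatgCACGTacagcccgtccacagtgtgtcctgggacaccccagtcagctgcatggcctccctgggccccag

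The printed Car7 window held GGGCGG at positions -122, -70 and -43, counted from the start site. Of the Car7 windows not printed, chr8:104541059-104541358 held GGGCGG at -58 and chr8:104534450-104534749 did not hold it. The Car9 window held ACGTG on the other strand at -18. The Car4 window held it on the other strand at 3, with TATAAA at 43, past the start site. Also not printed, the Car14 window held ACGTG at -7 and the Car12 window GGGCGG at -35, each on the other strand. Among 32851 promoter windows of the same length, 35.7% held GGGCGG, 19.6% held ACGTG and 13.6% held TATAAA. The octamer ATGCAAAT, a motif of POU factors, was in 1.74% of all windows and in none of the 7 windows of members. These matches describe letters only.

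The tuft label was checked against 12 tuft genes, Pou2f3, Trpm5, Dclk1, Il25, Avil, Chat, Alox5, Ptgs1, Hpgds, Rgs13, Gfi1b and Il17rb. Their summed level was 12730 to 16361 CPM in small intestine tuft cells, 3264 to 4208 CPM in colon, 14296 to 15446 CPM in gall bladder, 4635 to 5993 CPM in thymus and 8505 to 14558 CPM in trachea tuft cells, against 130.3 to 230.0 CPM in non-tuft cells. Every tuft library was thus above every non-tuft library, and colon libraries were the lowest of the tuft groups. Il25 carries the reporter used for the sort, so it is no separate check. It averaged 24.7 CPM in small intestine tuft cells and 0.28 CPM in non-tuft cells. CPM are counts scaled to a common library size, here with TMM factors over all 21 libraries. Mitochondrial genes took 4.38 to 10.1% of counts in thymus and trachea libraries and 14.8 to 33.5% in the others. In such bulk samples, fewer cells of a type and less RNA per cell cannot be told apart.

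Each group held its own mix of carbonic anhydrases, as the plot of levels by library shows. Divided by exon length, the summed level of the 10 genes was 134 ± 30.4 CPM per kb in small intestine tuft cells (SD, n = 3), 1567 ± 273 in colon (n = 4), 248 ± 139 in gall bladder (n = 3), 92.1 ± 6.45 in thymus (n = 4) and 31.7 ± 8.0 in trachea tuft cells (n = 4), against 143 ± 14.1 CPM per kb in non-tuft cells (n = 3). Colon libraries stood above those of every other group, and trachea libraries below. Small intestine tuft totals, at 116 to 169 CPM per kb, overlapped non-tuft totals, at 135 to 160 CPM per kb.

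**Figure D1:**
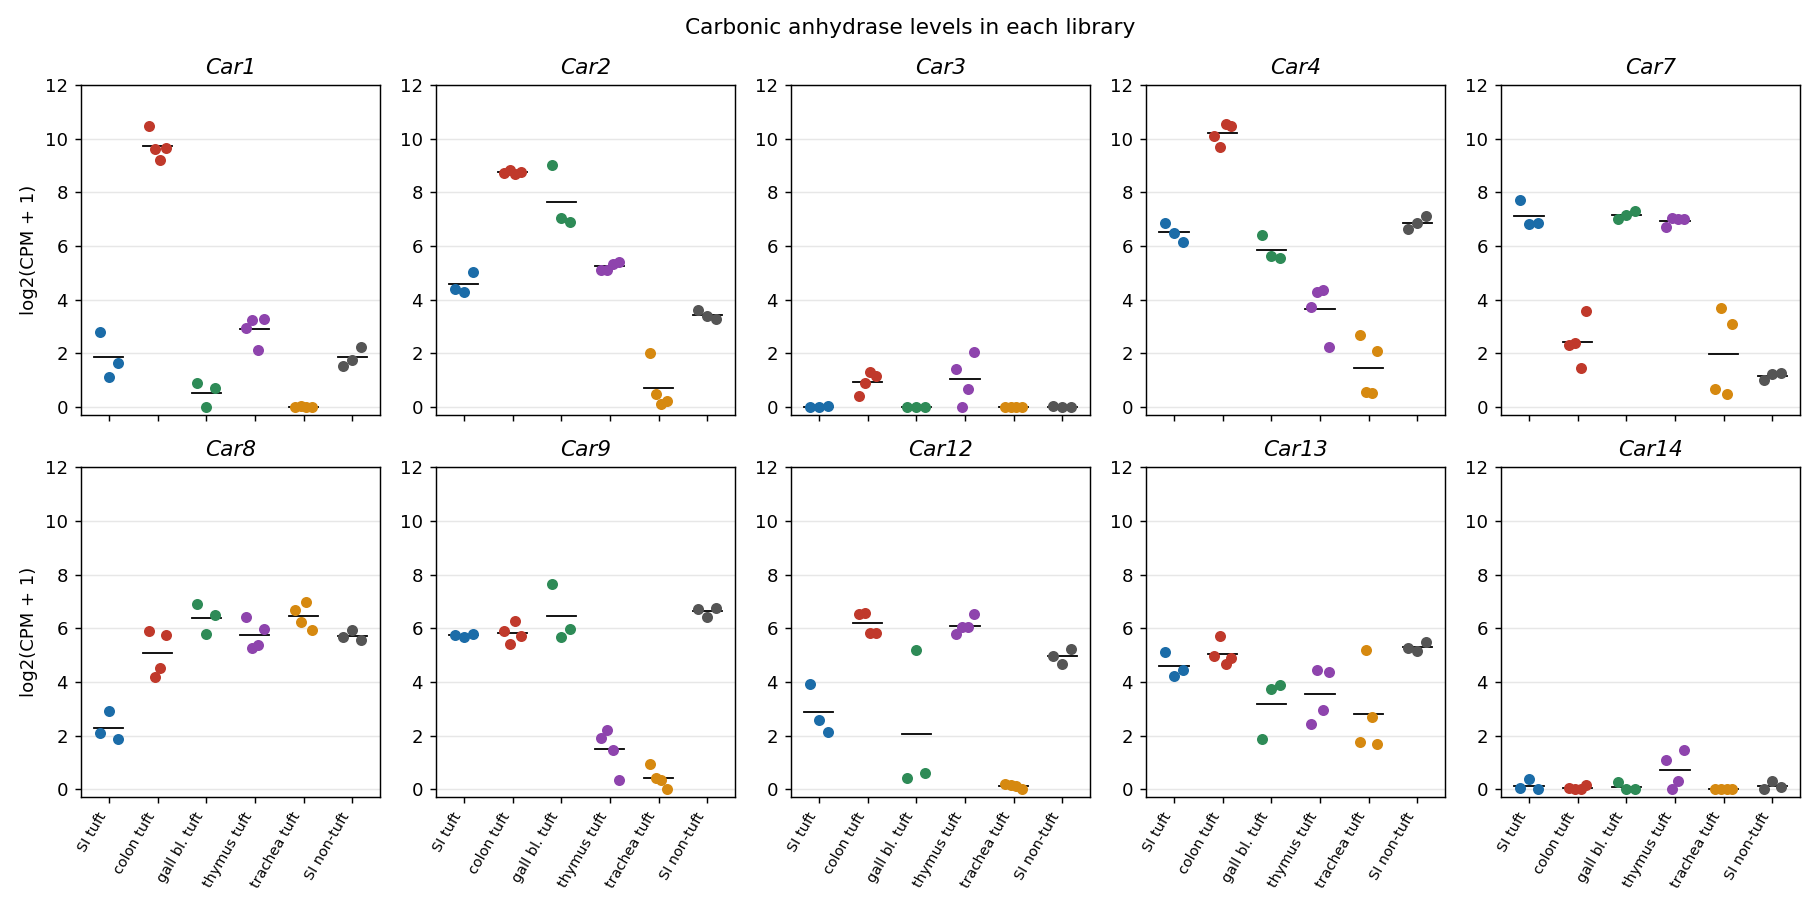
Level of each of the 10 carbonic anhydrases in each library, as log2(CPM + 1) on a common axis, by group. Points are libraries and lines are group means of the log2 values. Car1 and Car4 stand highest in colon, Car7 is high in small intestine, gall bladder and thymus tuft cells, and Car3 and Car14 stay at or under 3.11 CPM.

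The leading genes differed from group to group. Per exon length, Car4 made up 34.8% of the 10-gene sum in small intestine tuft cells, Car7 29.2% and Car9 17.5%. Non-tuft cells instead had Car4 at 41.4%, Car9 at 29.9% and Car13 at 11.7%, with Car7 at 0.24%. In colon tuft cells Car1 made up 44.9%, Car4 39.7% and Car2 11.5%. Gall bladder tuft cells had Car2 at 37.8%, Car7 at 19.0% and Car9 at 16.8%. Thymus tuft cells had Car7 at 36.6%, Car2 at 16.5% and Car8 at 15.9%. In trachea tuft cells the acatalytic Car8 made up 75.5% and Car13 13.5%. Replicate 2 held the highest trachea share of Car13, at 39.6%, and the mean share was 4.85% without it. With the length of the longest transcript in place of all exons, Car4 passed Car1 in colon, at 47.6% against 36.6%. On that length Car4 and Car7 stood level in small intestine tuft cells, at 36.0% and 36.1%.

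**Figure D2:**
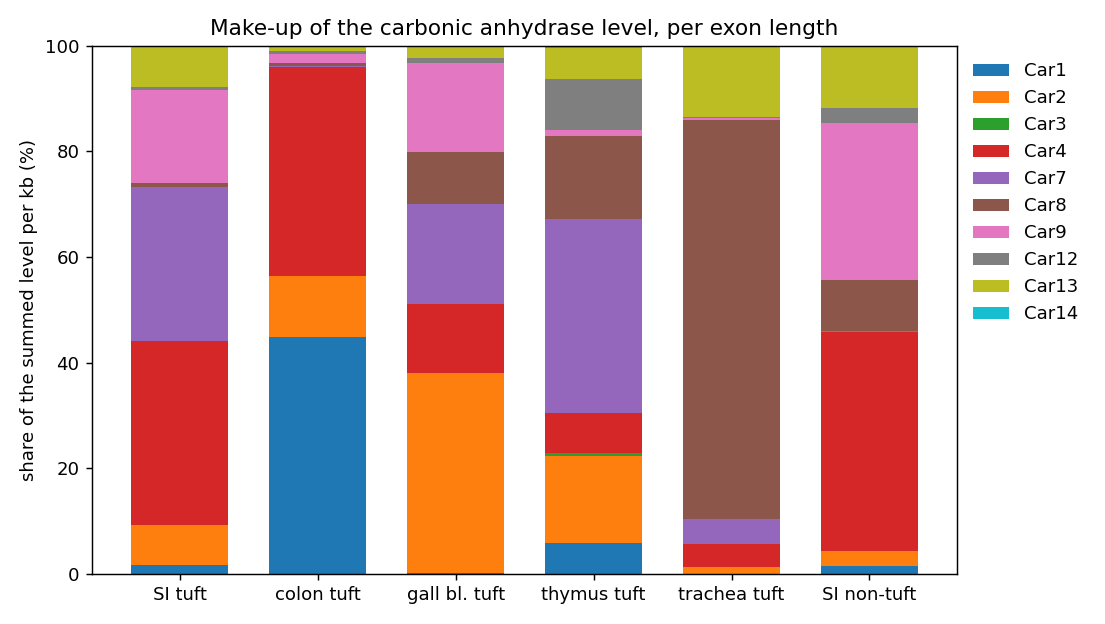
Share of each member in the summed level per kb of exon, in percent, as the mean over the libraries of each group, with each bar adding to 100%. Car7 takes 29.2% in small intestine tuft cells and 0.24% in non-tuft cells, and Car8 takes 75.5% in trachea tuft cells.

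By location, membrane-bound enzymes made up 53.0 ± 4.64% of the sum in small intestine tuft cells, against 74.1 ± 1.61% in non-tuft cells (SD, n = 3 each). Cytosolic enzymes made up 46.2 ± 5.17% in small intestine tuft cells, against 16.3 ± 0.64% in non-tuft cells. The cytosolic share was 57.5 ± 11.1% in colon, 59.4 ± 1.96% in gall bladder, 65.4 ± 5.34% in thymus and 19.6 ± 19.7% in trachea tuft cells. The trachea share ran from 7.12 to 48.6% over its libraries, the widest range of any group.

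Car7, a cytosolic enzyme best known from neurons, set small intestine, gall bladder and thymus tuft cells apart from the other groups. The gene (ENSMUSG00000031883) lies at chr8:104534689-104550343 on the plus strand of GRCm38. Its level was 207, 113 and 115 CPM in small intestine tuft cells, against 0.99, 1.37 and 1.38 CPM in non-tuft cells. The log2 fold change was 6.91 ± 0.30 (SE), and the libraries did not overlap. Gall bladder tuft cells held 126, 140.3 and 156 CPM, and thymus tuft cells held 105, 131, 126 and 129 CPM. These 3 tissues overlapped one another. Colon tuft cells held 3.91, 4.17, 1.73 and 10.9 CPM, and trachea tuft cells 0.59, 11.9, 0.40 and 7.41 CPM. Both lay below every library of the other tuft tissues and overlapped each other, and trachea also overlapped non-tuft cells. The colon mean was 5.18 CPM, and 3.27 CPM without replicate 4. The trachea mean was 5.09 CPM, and 2.80 CPM without replicate 2.

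Car13, Car1, Car3 and Car2, 4 cytosolic genes, lie side by side on chromosome 3 over 259 kb (chr3:14641727-14900770), and their levels followed different patterns over the groups. Car1 (ENSMUSG00000027556, chr3:14766216-14808368, minus strand), known from red cells and colon epithelium, was at 1419, 777, 582 and 801 CPM in colon tuft cells. In the other groups Car1 did not pass 8.61 CPM, its highest value in thymus tuft cells. It had 6.00, 1.18 and 2.08 CPM in small intestine tuft cells, against 1.90, 2.35 and 3.76 CPM in non-tuft cells, and these overlapped. The small intestine tuft mean was 3.08 CPM, and 1.63 CPM without replicate 2. In gall bladder tuft cells Car1 had 0.84, 0 and 0.63 CPM. In trachea tuft cells it had 2 counts in all, with 3 libraries at 0, where 3 counts would come to at most 0.117 CPM (counting error only). Red cell genes were near 0, with a summed level of 0.39 to 3.09 CPM over 6 genes in colon tuft cells and at most 11.1 CPM in any library.

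Car2 (ENSMUSG00000027562, chr3:14886273-14900770, plus strand), a fast and widely used cytosolic enzyme, was highest in colon and gall bladder. Colon tuft cells held 419.8, 451, 411 and 426 CPM, the narrowest relative spread of any group for Car2. Gall bladder tuft cells held 513, 131 and 119 CPM, so that replicate 1 alone reached the colon range. The gall bladder mean was 254 CPM, and 125 CPM without replicate 1. Car2 was at 33.0, 33.8, 39.4 and 41.2 CPM in thymus tuft cells and at 3.01, 0.39, 0.093 and 0.18 CPM in trachea tuft cells. Small intestine tuft cells held 20.3, 18.3 and 31.9 CPM, against 11.2, 9.49 and 8.78 CPM in non-tuft cells. The log2 fold change was 1.32 ± 0.25 (SE), with no overlap.

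Car13 (ENSMUSG00000027555, chr3:14641727-14663002, plus strand), another cytosolic enzyme, differed less in proportion between group means than the other 7 members above trace level. Its means ran from 9.56 CPM in gall bladder tuft cells to 38.6 CPM in non-tuft cells, and each group overlapped its neighbour in that order. Small intestine tuft cells held 34.1, 17.7 and 20.8 CPM, against 37.4, 34.2 and 44.3 CPM in non-tuft cells. The highest tuft value lay just under the lowest non-tuft value, and the log2 fold change was -0.62 ± 0.23 (SE). Colon tuft cells held 29.9, 51.0, 24.7 and 28.9 CPM, gall bladder 2.69, 12.2 and 13.8 CPM, and thymus 4.43, 20.7, 6.73 and 19.7 CPM. In trachea tuft cells replicate 2 held 35.3 CPM and the others 2.19 to 5.47 CPM. The trachea mean was 11.3 CPM, and 3.34 CPM without replicate 2.

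Car3 (ENSMUSG00000027559, chr3:14863512-14872523, plus strand), a slow enzyme of muscle and fat, never passed 3.11 CPM and had counts in 9 of 21 libraries. It had none in gall bladder or trachea tuft cells, where 3 counts would come to at most 0.103 and 0.117 CPM in a library. Its mean was 1.34 CPM in thymus tuft cells and 0.98 CPM in colon tuft cells. Without replicate 4 the thymus mean of Car3 was 0.75 CPM, below the colon mean. In thymus the summed level of 4 fat cell genes was 53.3 to 83.6 CPM, against at most 0.71 CPM in any other group. Nearly all of that sum was Fabp4, at a mean of 73.4 CPM, with Adipoq at 1.19 CPM and Cfd and Plin1 at 0. Skeletal muscle genes, 4 in all, summed to 22.5 to 51.2 CPM in thymus, 90.3 to 137 CPM in colon, 46.3 to 92.8 CPM in small intestine tuft and 82.5 to 101 CPM in non-tuft cells, and to at most 3.34 CPM in gall bladder and trachea. Ckm and Myh4 averaged 2.87 and 18.8 CPM in thymus and at most 0.046 and 0.10 CPM in any other group. The sums in both gut tissues were nearly all Acta1, which averaged 58.1 CPM in small intestine tuft, 116 CPM in colon tuft and 87.0 CPM in non-tuft cells. The part of such cells in the Car3 level was not tested.

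Car8 (ENSMUSG00000041261, chr4:8143362-8239041, minus strand), the acatalytic member, was low in small intestine tuft cells and present in all other groups. It had 3.25, 6.60 and 2.69 CPM in small intestine tuft cells, against 50.4, 59.9 and 46.5 CPM in non-tuft cells. The log2 fold change was -3.58 ± 0.33 (SE), and the libraries did not overlap. Colon tuft cells held 57.9, 17.1, 21.9 and 52.9 CPM, and gall bladder tuft cells 119, 53.7 and 89.3 CPM. Thymus tuft cells held 83.6, 37.2, 40.9 and 61.9 CPM, and trachea tuft cells 103, 75.2, 126 and 60.5 CPM. Every library outside small intestine tuft cells was above every library within them. The other 5 groups each overlapped the next in order of mean. Trachea tuft cells, lowest of the 6 groups for Car1, Car2, Car4, Car9 and Car12, had the highest mean of Car8, 91.1 ± 29.0 CPM (SD, n = 4).

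Car4 (ENSMUSG00000000805, chr11:84957786-84966044, plus strand), the lipid-anchored enzyme of the cell surface, was highest in colon tuft cells, at 1088, 829.7, 1491 and 1411 CPM. Small intestine tuft cells held 115, 89.2 and 70.4 CPM, against 97.4, 116 and 138 CPM in non-tuft cells. These overlapped, with a log2 fold change of -0.29 ± 0.19 (SE). Gall bladder tuft cells held 83.6, 48.2 and 46.3 CPM, thymus tuft cells 12.1, 18.6, 19.7 and 3.73 CPM, and trachea tuft cells 5.36, 0.49, 0.43 and 3.21 CPM. Colon was thus apart from every other group, and gall bladder was apart from thymus. The trachea mean was 2.37 CPM, and 1.38 CPM without replicate 1.

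Colonocyte genes moved with Car1 and Car4. Summed over Aqp8, Guca2a, Cyp2c55, Tmigd1, Saa1 and Hoxb13, all 6 measured, they came to 2152 to 2921 CPM in colon tuft libraries. The same sum was 147 to 225 CPM in small intestine, 1.93 to 33.6 CPM in gall bladder, 30.3 to 57.1 CPM in thymus and 0.53 to 3.48 CPM in trachea tuft cells, where Hoxb13 was at 0, and 264 to 298 CPM in non-tuft cells. Each of the 6 genes had counts in colon libraries. Goblet cell genes, 6 in all, summed to 5598 to 8065 CPM in colon tuft libraries and to at most 2611 CPM in those of other tuft tissues. Most of the colon sum was Muc2, at a mean of 5314 CPM, while Zg16, Tff3 and Fcgbp averaged less than in small intestine tuft cells. The part of colonocytes and goblet cells in the colon levels of Car1 and Car4 was not tested, and colon epithelium without tuft cells was not analysed here.

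Car9 (ENSMUSG00000028463, chr4:43506966-43513729, plus strand), a membrane-spanning enzyme known as a target of hypoxia-inducible factors, was present in the gut groups and gall bladder and low in thymus and trachea. Small intestine tuft cells held 52.6, 50.5 and 53.8 CPM, against 105, 84.1 and 106 CPM in non-tuft cells. The log2 fold change was -0.85 ± 0.14 (SE), with no overlap. Colon tuft cells held 59.3, 41.9, 75.7 and 52.0 CPM, and gall bladder tuft cells 199.8, 50.5 and 62.4 CPM. Thymus tuft cells held 2.74, 3.68, 1.76 and 0.26 CPM, and trachea tuft cells 0.90, 0.35, 0.28 and 0 CPM. Every thymus and trachea library was below every library of the other 4 groups. The gall bladder mean was 104 CPM, and 56.5 CPM without replicate 1. Car9 shares 214 exon bases with Gm12454 on the opposite strand, listed at 0 to 14.3 CPM. Whether counting used strand is not stated by any source used here, so reads of the pair could not be told apart in the shared bases.

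Gall bladder replicate 1 was the high library for both Car2 and Car9. In that library the summed level of 4 airway secretory genes was 490 CPM, against at most 1.41 CPM in the other gall bladder libraries, and Aqp1, a water channel, was at 744 CPM, against 279.7 and 104 CPM in replicates 3 and 4. Their part in the Car2 and Car9 levels was not tested.

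Car12 (ENSMUSG00000032373, chr9:66713686-66766845, plus strand), a membrane-spanning enzyme of secretory epithelia, was highest in colon and thymus. Colon tuft cells held 91.9, 92.9, 55.6 and 55.4 CPM, and thymus tuft cells 53.9, 65.8, 64.4 and 90.8 CPM, and these overlapped. Small intestine tuft cells held 14.4, 5.00 and 3.37 CPM, against 30.4, 24.2 and 36.8 CPM in non-tuft cells. The log2 fold change was -1.95 ± 0.45 (SE), with no overlap. Without replicate 2 the small intestine tuft mean was 4.19 CPM, in place of 7.58 CPM. Trachea tuft cells held at most 0.14 CPM.

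In gall bladder, Car12 rested on 1 library. Replicates 1, 3 and 4 held 0.35, 35.1 and 0.52 CPM. Without replicate 3 the gall bladder mean was 0.44 CPM, in place of 12.0 CPM. Foxi1, a transcription factor of ionocytes, was at 0, 115 and 29.4 CPM in replicates 1, 3 and 4, and Ascl3, the other ionocyte gene listed, at 0, 2.15 and 0 CPM. Slc26a4, an anion exchanger, was at 0.084, 14.3 and 0.26 CPM in the same order. The part of ionocytes in Car12 was not tested.

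Car14 (ENSMUSG00000038526, chr3:95897768-95904691, minus strand), a membrane-spanning enzyme, never passed 1.75 CPM and had counts in 10 of 21 libraries. Its mean was highest in thymus tuft cells, at 0.79 CPM, and it had no counts in trachea tuft cells. It shares 445 exon bases with Aph1a on the opposite strand, so at these levels reads of the pair could not be told apart.

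Between small intestine tuft and non-tuft cells, both sorted from the same organ, the members split by direction. Of the 8 with enough counts for a fit, Car7 and Car2 were higher in tuft cells, and Car8, Car12, Car9 and Car13 were lower, by fold changes given above without a test. The share of all genes whose libraries separated in this way was not counted, so the split describes these members only. Car1, at 0.26 ± 0.59 (SE) on the log2 scale, and Car4 overlapped between the groups. Without small intestine tuft replicate 2 the value for Car1 was -0.64. The median log2 fold change of the 8 was -0.46, beside -0.03 over all 16063 genes tested. Enterocyte genes, 8 in all, summed to 26540 to 32208 CPM in tuft libraries and 13698 to 16071 CPM in non-tuft libraries. Goblet cell genes, 6 in all, summed to 2025 to 2513 CPM in tuft libraries and 100844 to 110835 CPM in non-tuft libraries. Enteroendocrine genes, 5 in all, summed to 324 to 858 CPM in tuft libraries and 8609 to 12175 CPM in non-tuft libraries, and 4 Paneth cell genes to 72.5 to 323 CPM in tuft libraries and 7625 to 10134 CPM in non-tuft libraries. Their part in the members' levels was not tested.

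**Figure D3:**
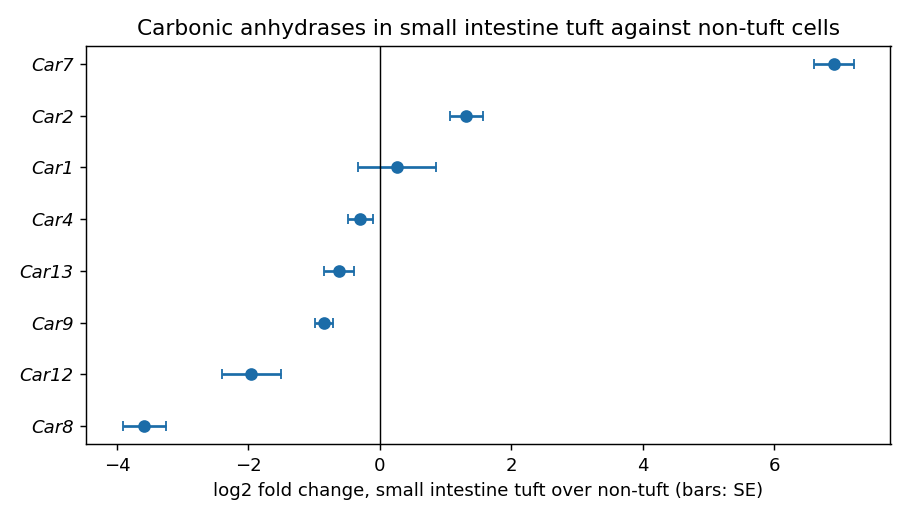
Log2 fold change of small intestine tuft over non-tuft cells for the 8 members with enough counts for a fit (n = 3 libraries each), with standard errors as bars. Car7 lies at 6.91 and Car8 at -3.58, and Car1 and Car4 lie nearest to 0.

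Outside the 10 members, no gene of the family passed 25.4 CPM in any library. The shares of the 10-gene sum leave these 6 genes out. In trachea tuft cells the members other than Car8 and Car13 did not pass 11.94 CPM. Car5b, a mitochondrial enzyme, was at 24.6, 3.89, 19.8 and 5.40 CPM in trachea tuft cells and did not pass 0.94 CPM in any other group. Car11, a relative with no catalytic activity, was at 25.4, 22.6, 0.030 and 18.2 CPM in trachea tuft cells and at most 8.21 CPM in the other groups. The lowest trachea value was a single count. Car6, the secreted enzyme of saliva, was at 3.85, 9.28, 3.29 and 11.6 CPM in thymus tuft cells and at most 0.50 CPM in the others. Car10 and Car15 did not pass 1.38 and 1.05 CPM. Car5a, the mitochondrial enzyme of liver, had no count in any of the 21 libraries.

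For each of the 8 members that averaged 20 CPM or more in some group, the genes most like it over the 21 libraries were found by Pearson's r of log2(CPM + 1). The libraries share groups, depth and sorting, so r describes likeness of pattern only. Trpm6, a magnesium channel, was most like Car1 (r = 0.984), with 126 CPM in colon tuft cells and at most 3.41 CPM in the other groups, followed by Gsdmc3 and Gsdmc2 (r = 0.977 each). Muc3, a membrane mucin, was most like Car4 (r = 0.972), followed by the chloride and bicarbonate exchanger Slc26a3 (r = 0.964) and Ceacam20 (r = 0.944). B4galnt2 (r = 0.978), the brush border myosin Myo1a (r = 0.972) and the transcription factor Hnf4a (r = 0.970) were most like Car9. Hnf4a had 506 CPM in small intestine, 791 in colon and 284 in gall bladder tuft cells, 12.0 in thymus and 3.72 in trachea tuft cells, and 909 CPM in non-tuft cells.

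Likeness was weaker for the other 5. Ddah1 (r = 0.958), the clock gene Per2 (r = 0.920) and the DNA sensor Aim2 (r = 0.906) were most like Car2. Stxbp3, a protein of vesicle fusion, was most like Car7 (r = 0.925), followed by Nmrk1 (r = 0.904) and the junction protein F11r (r = 0.898). None of these 3 matched the range of Car7, since Stxbp3 ran from 42.7 CPM in non-tuft cells to 116 CPM in thymus tuft cells. Dpysl3 (r = 0.886), the microtubule protein Map1b (r = 0.860) and Ints6l (r = 0.859) were most like Car8. Fam102b (r = 0.913), the cysteine dioxygenase Cdo1 (r = 0.908) and Slc6a7 (r = 0.906) were most like Car12. Plk4, a kinase of centriole duplication (r = 0.883), Abhd11os (r = 0.881) and Rad54l, a DNA repair gene (r = 0.866), were most like Car13.

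Next to the members, a list of 48 bicarbonate and pH genes was tested. The list was drawn up with earlier results of these data known. Its counts beside those over all genes are therefore a description. It held 21 bicarbonate and chloride carriers and 19 proton movers. The other 8 were the water channels Aqp1, Aqp4 and Aqp5, with Rhbg, Rhcg, Adcy10, Ptprg and Ptprz1. Whether the 48 genes use what the carbonic anhydrases make was not measured. In small intestine tuft against non-tuft cells, 33 had enough counts, of which 6 rose and 5 fell (edgeR's quasi-likelihood test, Benjamini-Hochberg adjusted p under 0.05 and at least 2-fold). Over all genes tested 13.0% rose and 13.9% fell. The list's median log2 fold change was 0.25, beside -0.03 over all genes. With all 21 libraries in the fit, 3 list genes were called.

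Slc4a8, a sodium-driven chloride and bicarbonate exchanger, rose most. It was at 204, 202 and 171 CPM in small intestine tuft cells, against 11.01, 14.0 and 9.81 CPM in non-tuft cells. The log2 fold change was 4.11 ± 0.18 (SE; edgeR adjusted p = 1.01e-07). Slc4a2, a chloride and bicarbonate exchanger, averaged 129 CPM in tuft cells, against 35.5 CPM in non-tuft cells (log2 fold change 1.93 ± 0.14, edgeR adjusted p = 3.13e-06). Slc16a3, an exporter of lactate with a proton, averaged 48.2 CPM in tuft cells, against 8.94 CPM in non-tuft cells (2.49 ± 0.22, edgeR adjusted p = 1.21e-05). These 3 were also the calls with all 21 libraries in the fit.

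Among the genes that fell, Cftr, the chloride and bicarbonate channel, averaged 48.6 CPM in small intestine tuft cells, against 148 CPM in non-tuft cells. Its log2 fold change was -1.54 ± 0.12 (SE; edgeR adjusted p = 7.05e-06). The water channel Aqp4 averaged 12.0 CPM in tuft cells, against 46.7 CPM in non-tuft cells (-1.91 ± 0.26, edgeR adjusted p = 0.000288). Aqp1, also a water channel, averaged 67.4 CPM in tuft cells, against 142 CPM in non-tuft cells (-1.01 ± 0.15, edgeR adjusted p = 0.000526). The lactate carrier Slc16a1 averaged 23.9 CPM in tuft cells, against 52.4 CPM in non-tuft cells (-1.07 ± 0.15, edgeR adjusted p = 0.00032). The calls of Aqp1 and Slc16a1 did not hold without non-tuft replicate 3 and without non-tuft replicate 1, in that order, and that of Aqp1 also not without small intestine tuft replicate 4. Otop3, Slc26a6 and Slc4a5 were not called here.

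Next, the mean log2 level of each tuft tissue was compared with the average over the remaining 4 tissues, with 45 of the 48 genes tested. In small intestine tuft cells 10 rose and 8 fell, with 10.0% and 7.45% over all 19850 genes tested, and the list's median was -0.43 beside -0.14. With DESeq2 the split was 9 higher and 11 lower. The proton channel Otop3 averaged 34.7 CPM in small intestine tuft cells, against 0.052 to 0.34 CPM in the other tissues (log2 fold change 8.19 ± 1.01, edgeR adjusted p = 6.42e-06). The anion exchanger Slc26a6 averaged 98.2 CPM, against 1.53 to 2.56 CPM (5.61 ± 0.56, edgeR adjusted p = 3.96e-07). Slc4a5 averaged 46.9 CPM, against 0.25 to 35.9 CPM, and Slc16a3 48.2 CPM, against 0.64 to 17.3 CPM, and both rose (edgeR adjusted p = 1.1e-06 and 6.61e-07). Ano1, a chloride channel, averaged 1.62 CPM, against 5.51 to 66.0 CPM, and fell (edgeR adjusted p = 1.44e-05), as did Atp6v1a, a proton pump subunit (edgeR adjusted p = 0.00149). Slc9a9 and Atp4a also fell (edgeR adjusted p = 0.0248 and 0.0195). The call of Slc9a9 was lost with DESeq2 and in each fit that left out a small intestine tuft library, and that of Atp4a without replicate 3 or replicate 4. In trachea, Slc9a9 averaged 18.6 CPM, and 1.03 CPM without trachea replicate 3. Atp4a averaged 10.8 CPM there, and 1.59 CPM without trachea replicate 2. The Ano1 mean was 1.04 CPM without small intestine tuft replicate 4. The 8 enterocyte genes were also highest there, at 26540 to 32208 CPM in small intestine tuft libraries and at most 999.8 CPM in those of the other tuft tissues. Over the other tissues Slc4a5 did not follow them, with means of 35.9 CPM in trachea and 0.25 CPM in gall bladder. Otop3, Slc26a6 and Slc4a5 averaged 27.1, 77.1 and 53.6 CPM in non-tuft cells, in that order. The part of enterocytes in these levels was not tested.

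In colon tuft cells 14 list genes rose and 5 fell, with 10.7% and 5.78% over all genes, and the list's median was 0.02 beside -0.01. With DESeq2 12 were higher and 10 lower. Slc26a3, the chloride and bicarbonate exchanger, averaged 568 CPM in colon, against 0.29 to 107 CPM in the other tissues (log2 fold change 5.87 ± 0.33, edgeR adjusted p = 3.41e-10). Atp12a, a proton and potassium pump, averaged 55.0 CPM, against 0.049 to 2.49 CPM (7.39 ± 0.57, edgeR adjusted p = 2.07e-08). Cftr averaged 193 CPM, against 0.41 to 48.6 CPM (4.85 ± 0.75, edgeR adjusted p = 9.76e-05), and Aqp4 258 CPM, against 0.43 to 86.5 CPM (4.64 ± 0.42, edgeR adjusted p = 1.69e-07). Slc4a8 was low in colon, as was Car7. It averaged 9.95 CPM, against 97.0 to 259 CPM in the other tissues (-4.20 ± 0.31, edgeR adjusted p = 1.07e-08), and Slc4a5 fell too (edgeR adjusted p = 0.00175). The colonocyte sums given above were highest in colon too, as were Slc26a3, Atp12a, Cftr and Aqp4. Over the other tissues Aqp4 did not follow those sums, with means of 86.5 CPM in trachea and 12.0 CPM in small intestine tuft cells. The part of colonocytes in these levels was not tested.

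In gall bladder tuft cells 13 list genes rose and 8 fell, with 12.7% and 8.79% over all genes, and the list's median was 0.26 beside -0.19. Slc4a4, the sodium and bicarbonate cotransporter, averaged 444 CPM in gall bladder, against 20.7 to 130.3 CPM in the other tissues (log2 fold change 3.25 ± 0.45, edgeR adjusted p = 3.77e-05). Slc4a9, of the same family, was at 34.1, 163 and 109 CPM, against group means of 0.11 to 12.7 CPM (7.02 ± 0.86, edgeR adjusted p = 9.19e-06). Aqp1 averaged 376 CPM, against 0.82 to 92.2 CPM (edgeR adjusted p = 8.02e-06), and 192 CPM without gall bladder replicate 1. The gastric proton pump subunit Atp4a averaged 46.0 CPM, against 0.48 to 22.1 CPM, and its call did not hold without gall bladder replicate 1 (edgeR adjusted p = 0.00704 with it), where the mean was 11.1 CPM. Cftr averaged 0.41 CPM, against 4.09 to 193 CPM (-6.21 ± 1.44, edgeR adjusted p = 0.00419), and Aqp4 0.43 CPM, against 12.0 to 258 CPM (edgeR adjusted p = 1.04e-05). The lowest of those Cftr means, that of trachea, was 0.12 CPM without trachea replicate 2. Slc9a2, a sodium and proton exchanger, and Slc4a5 also fell (edgeR adjusted p = 0.000863 and 0.00363). Ciliated cell genes, 3 in all, summed to 598 to 681 CPM in gall bladder libraries and to at most 342 CPM in all others. Most of that was Dnah5, at a mean of 584 CPM in gall bladder, with Foxj1 at 45.7 CPM and Tekt1 near 0. Foxj1 averaged more, 56.2 CPM, in another tuft tissue. The ionocyte genes Foxi1 and Ascl3 summed to 0 to 118 CPM in gall bladder and to at most 22.1 CPM elsewhere. Foxi1 was at 0, 115 and 29.4 CPM in gall bladder, in the same order of libraries as Slc4a9. The part of such cells in these levels was not tested.

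In thymus tuft cells 18 list genes rose and 8 fell, with 26.8% and 5.64% over all genes. In fits that left out 1 thymus library, 12 to 15 list genes rose, and 4066 to 4662 rose over all genes in place of 5316. With mitochondrial transcripts left out, 14 list genes rose, and 5074 rose over all genes. The list's median was 1.31, beside 0.33 over all genes, or 0.43 over all genes with DESeq2 size factors in place of TMM. Slc4a11 averaged 48.4 CPM in thymus, against 0.095 to 5.53 CPM in the other tissues (log2 fold change 5.39 ± 0.86, edgeR adjusted p = 5.75e-05). The anion transporter Slc26a9 averaged 37.3 CPM, against 0.10 to 9.72 CPM (5.14 ± 0.94, edgeR adjusted p = 0.000239). The upper ends, both gall bladder means, were 0.13 CPM for Slc4a11 and 2.53 CPM for Slc26a9 without gall bladder replicate 4. Slc9a9 averaged 54.0 CPM, against 1.56 to 29.9 CPM, and Atp4a 22.1 CPM, against 0.48 to 46.0 CPM with gall bladder above thymus, and both rose (edgeR adjusted p = 0.0281 and 0.0454). Slc9a9 lost its call with DESeq2 and without thymus replicate 1, 2 or 3. Atp4a lost its call with mitochondrial transcripts left out and in each fit that left out 1 of the 4 thymus libraries. Slc9a3, a sodium and proton exchanger, averaged 1.57 CPM (0.75 CPM without thymus replicate 1), against 0.61 to 113 CPM, and fell (edgeR adjusted p = 0.000203), as did Slc26a3, Slc4a4 and Slc4a5. The call of Slc4a5 did not hold in any fit that left out 1 thymus library. Genes of medullary thymic epithelium, 4 of the 5 listed having a level, summed to 1087 to 1281 CPM in thymus libraries and to at most 124 CPM in all others. Smooth muscle genes, 3 in all, summed to 70.7 to 171 CPM in thymus and to at most 3.19 CPM elsewhere. The part of such cells in the thymus levels of the list genes and of the members was not tested.

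In trachea tuft cells 11 list genes rose and 13 fell, with 17.3% and 13.7% over all genes, and the list's median was -0.77 beside -0.01. Of the 20 bicarbonate and chloride carriers tested, 3 rose and 8 fell. Of the 17 proton movers tested, 4 rose and 4 fell, and of the 8 remaining list genes, 4 rose and 1 fell. Atp6v1b1, a proton pump subunit, was at 46.5, 46.4, 67.4 and 7.45 CPM in trachea, against group means of 0.011 to 1.68 CPM in the other tissues (log2 fold change 7.20 ± 1.10, edgeR adjusted p = 4.95e-05). The water channel Aqp5 averaged 37.9 CPM, against 0.019 to 2.27 CPM (7.08 ± 1.01, edgeR adjusted p = 2.48e-05). Slc4a5 and Aqp4 also rose (edgeR adjusted p = 2.03e-06 and 6.88e-05), and the Slc4a5 mean was 35.9 CPM, or 22.7 CPM without trachea replicate 1. Small intestine was above trachea for Slc4a5, at 46.9 CPM. Colon was above trachea for Aqp4, at 258 CPM against 86.5 CPM. Slc26a3 averaged 0.29 CPM, against 4.36 to 568 CPM (-7.71 ± 0.58, edgeR adjusted p = 1.21e-08). Slc16a1, Aqp1 and Slc9a3 fell as well (edgeR adjusted p = 1.04e-05, 1.07e-05 and 1.44e-05). Airway secretory genes, 4 in all, summed to 23851 to 108565 CPM in trachea libraries and to at most 490 CPM in all others, and their part in these levels was not tested. Of 4 myeloid genes, Lyz2 averaged 2613 CPM in trachea, while Csf1r averaged 0.046 CPM, Tyrobp 0.76 CPM and Cd68 13.1 CPM, against up to 30.0 CPM of Cd68 in gall bladder.

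**Figure D4:**
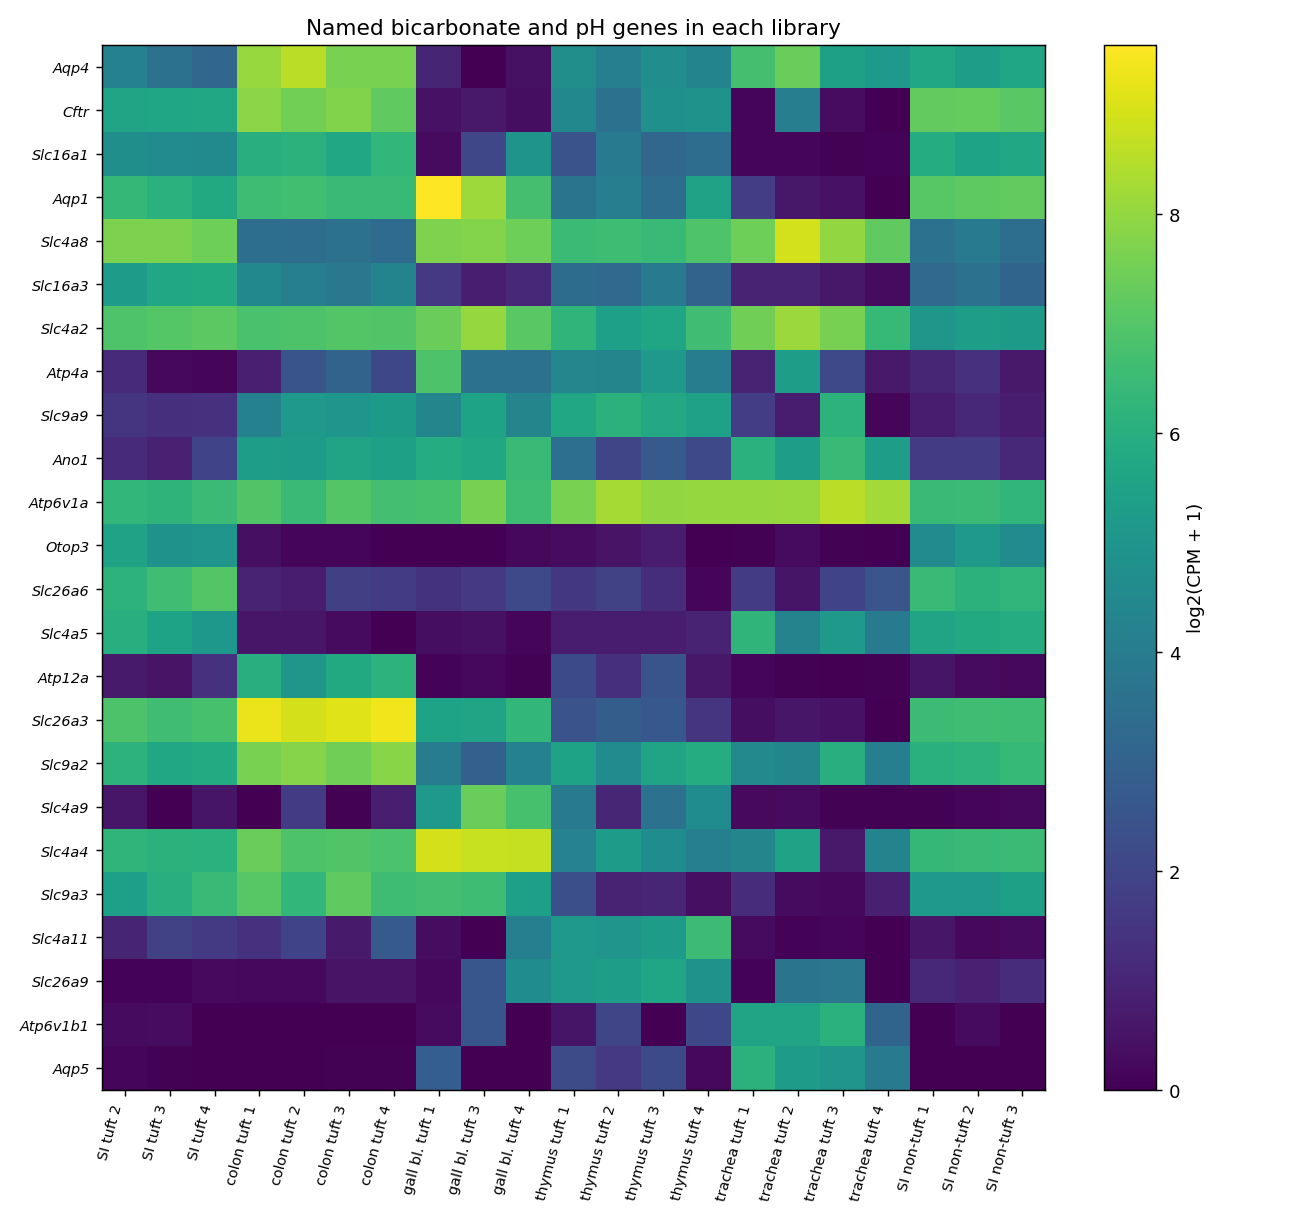
Level of the named bicarbonate and pH genes (rows) in each of the 21 libraries (columns, by group and replicate), as log2(CPM + 1) from dark (0) to yellow (highest). Slc4a8 is bright in all tuft tissues except colon, Slc26a3 is brightest in colon tuft cells, and Slc4a4 is brightest in gall bladder tuft cells.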

How the data were processed

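Poly(A) RNA of sorted cells was amplified and sequenced with no molecular identifiers, using the kits NuGEN Ovation (version V2) and, for libraries, Nextera XT, per the labels' protocols. Counting floors (3 counts) therefore cover counting error only. Thymus and trachea were dissociated by protocols of their own. The series description says that 4 replicates per group were sorted and 3 discarded for quality. The authors deposited raw counts, whole numbers for every gene and library. STAR, DESeq2 and GRCm38 appear in the submitters' processing notes, without versions. The counting tool, strandedness and annotation are not given in the sources.

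Symbols, coordinates and exon lengths came from GENCODE M21, in which 42548 identifiers were found and 884, with 0.0986% of counts, were not. The members and gene lists were chosen with earlier results of these data known. Levels are CPM scaled by TMM over 21 libraries. Fits used edgeR 4.0.16 (R 4.3.3, limma 3.58.1): filterByExpr, TMM, quasi-likelihood F test, two-sided, Benjamini-Hochberg over all genes tested. Calls needed an adjusted p below 0.05 together with a fold change of 2 or more either way. Standard errors are approximate, from the fold change and F. The comparison within small intestine used its 6 libraries, and the comparison of each tissue with the average of the other 4 used the 18 tuft libraries. That average is over log2 levels, so its sign can differ from that of a difference of mean CPM. Replicates are separate samples per the labels, and no pair of libraries in a group agreed within counting noise. The procedure was tested on simulated data.

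Named list genes were, in each comparison, up to 4 called genes per direction with the largest fold change among those that averaged 20 CPM or more on the higher side. Genes most like a member were the 3 with the highest Pearson's r, leaving out predicted genes, antigen receptor segments, other members and sex-linked markers. The alternatives were DESeq2 1.42.0, its size factors in edgeR, no filter on low counts, mitochondrial transcripts left out, all 21 libraries in the fit, the replicate number as a block, each library left out in turn, female trachea pools left out, and the longest transcript as gene length. Plots and summaries were made with matplotlib 3.10.9 and pandas 2.3.3 (Python 3.11.15).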

Additional observations from a re-analysis of the deposited data

Results flagged for a closer look

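Of 24 sets of 4 libraries (1 member in 1 group) tested for a library far from the rest, 2 had one, and chance gives about 1 in 20. Groups of 3 libraries were not tested, so only colon, thymus and trachea tuft cells could be flagged. Both were trachea tuft pools, which were the libraries with the fewest sorted cells. Car2 was at 3.01 CPM in trachea replicate 1, where the other 3 libraries held 0.093 to 0.39 CPM. Car13 was at 35.3 CPM in trachea replicate 2, where the other 3 held 2.19 to 5.47 CPM.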

How the results depend on the processing

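The number of bicarbonate and pH genes called stayed within 1.5 times its main value in all 6 comparisons under each alternative run, with 1 exception. In small intestine tuft against non-tuft cells, 3 list genes were called with all 21 libraries in the fit, in place of 11 with 6 libraries. Over all genes, that fit called 785 higher and 539 lower in place of 2092 and 2235. Leaving out 1 library at a time gave 8 to 14 calls in that comparison, 13 to 14 in small intestine against the other tissues, 16 to 20 in colon, 17 to 22 in gall bladder, 19 to 22 in thymus and 20 to 24 in trachea.

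Libraries with the same replicate number did not deviate together: the correlation ran from -0.06 to -0.03 in the 2 pairs of small intestine tuft and non-tuft cells and from -0.05 to 0.15 in 32 pairs of tuft tissues, with 1 over 0.1. With the replicate number as a block, the counts were 9, 18, 18, 19, 24 and 21, in place of 11, 18, 19, 21, 26 and 24, in the order small intestine tuft against non-tuft cells, then small intestine, colon, gall bladder, thymus and trachea. Among the genes named for each comparison, the block ended the calls of Aqp1 and Slc16a1 in small intestine tuft against non-tuft cells and of Slc4a5 in thymus.

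Member log2 fold changes moved by less than 1 SD between replicates in 58 of 58 values with DESeq2 size factors, with no filter, without mitochondrial transcripts and with all 21 libraries, in 53 with DESeq2, in 51 with the block, in 7 of 10 without the female trachea pools and in 202 of 228 in the fits that left out a library. The sign of Car14 in small intestine against the other tissues depended on the library left out, at -1.83 without replicate 3 and up to 1.69 without replicate 4, beside 1.12 with all 3, at levels near 0. In gall bladder, Car12 was at 0.63 and at -4.16 without replicate 3. The causes were not tested. The count of member and group means of at least 20 CPM was 27 with TMM, with DESeq2 size factors and without mitochondrial transcripts. The highest member per length was the same in 4 of 6 groups with the longest transcript as length. Car3 and Car14 lie too near 0 for a fold change.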
